A study of Mus musculus with 8 samples.

Results

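Unknown.1 was one of 20 clusters of mouse dorsal root ganglion cells named by the study's authors, and the largest of the 7 clusters whose name begins with Unknown. Its members were taken as all genes listed for it in the authors' deposited table of cluster markers, which compares each cluster with all other cells. The table lists 4597 genes for Unknown.1 of 9229 genes in all. The cluster held 9.17% of all cells and was the 3rd largest, against 30.7% for the 7 Unknown clusters together.

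The cells came from dorsal root ganglia of C57BL/6 mice aged 21 to 30 days, with the ganglia of 4 mice pooled per sample. Dissociated living cells were labelled for surface β5, a subunit of the proteasome, and sorted by flow cytometry into a population positive for the neuronal membrane proteasome (NMP) and an NMP-negative one. All cells of both groups carried the same genotype and labelling treatment. The 8 samples, 4 NMP-positive and 4 NMP-negative, are sequencing lanes of 1 droplet library per population by their descriptions, so there is no replicate, and the table has no column for either population. The labels cite an extraction protocol made for nuclei, and the sources used here do not say if nuclei or cells were loaded. The labels give the tissue as neurons of the ganglion and the cell type as somatosensory, whereas Unknown.1 carried the markers of another cell type, as the values here show. It is called endothelial-like after those markers.

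Endothelial cells line the inside of all blood vessels. They hold together through junctions of VE-cadherin and claudins, respond to vascular growth factors and to the shear stress of flowing blood, and regulate clotting, leukocyte entry and vessel width. In nerves and brain, many of them form a tight barrier with dedicated transporters, while vessels around the cell bodies of the dorsal root ganglion are known to be leakier than those inside the nerve.

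The promoters of Flt1, Cldn5 and Ly6c1, the 3 genes of largest fold change in the cluster, are shown because the transcription factors of the ETS family, which bind a GGAA core and act in endothelial cells, were themselves among its higher genes. Each line gives the 250 bases before the RefSeq start in build GRCm38.p6, 5′ to 3′ on the gene's strand, with any AGGAAG or CGGAAG on either strand in capitals. Flt1 lies at chr5:147726012-147726261 on the minus strand, Cldn5 at chr16:18776597-18776846 on the plus strand and Ly6c1 at chr15:75048838-75049087 on the minus strand, at the first of its 2 listed starts. The 30 bases after the start were found in a GENCODE transcript of the same gene for 2 of the 3 genes.
Flt1: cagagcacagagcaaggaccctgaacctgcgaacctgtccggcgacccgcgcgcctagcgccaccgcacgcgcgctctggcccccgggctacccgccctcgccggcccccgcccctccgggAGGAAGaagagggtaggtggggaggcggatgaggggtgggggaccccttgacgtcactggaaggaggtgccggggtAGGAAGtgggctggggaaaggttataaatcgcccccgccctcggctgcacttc
Cldn5: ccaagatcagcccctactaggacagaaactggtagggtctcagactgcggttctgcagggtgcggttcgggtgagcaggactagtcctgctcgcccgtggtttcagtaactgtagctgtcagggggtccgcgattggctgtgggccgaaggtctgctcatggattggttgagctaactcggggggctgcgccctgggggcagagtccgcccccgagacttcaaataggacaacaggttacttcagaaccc
Ly6c1: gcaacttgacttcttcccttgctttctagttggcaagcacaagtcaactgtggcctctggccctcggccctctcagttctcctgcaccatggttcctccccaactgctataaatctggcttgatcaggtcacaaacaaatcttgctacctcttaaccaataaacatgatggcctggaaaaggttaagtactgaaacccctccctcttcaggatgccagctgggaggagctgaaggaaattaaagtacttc

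Flt1 held 2 such ETS letter matches in a window of 70.4% G and C, and the windows of Cldn5 (59.6%) and Ly6c1 (48.4%) held 0. The median over all windows was 52.0%. The ETS letters occurred in 6 of the 11 endothelial marker promoters with a window (54.5%), in 10 of 20 among the 25 genes of largest fold change (50%) and in 39.0% of 27025 promoters of all genes. The letters CACCC, bound by KLF factors, were in 7 of 11 marker promoters (63.6%), 10 of 20 leading genes' promoters (50%) and 51.3% of all promoters. TATAAA was in 2 of 11 (18.2%), 4 of 20 (20.0%) and 8.12%, and the 2, Flt1 and Ly6c1, are among the 4. CACCC was searched on both strands and TATAAA on the gene's strand. A match of letters is a description of the sequence and not a binding site.

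Unknown.1 had 1663 genes higher than all other cells (18.0% of the 9229 genes) and 2656 lower (28.8%), where higher and lower mean a deposited adjusted p-value under 0.05 and the sign of the log2 fold change. These p-values treat cells as replicates of clusters that were made from the same cells, so they served only as a filter. The other 278 listed genes missed it, and 4632 genes of the table were not listed for the cluster, which can mean a level close to the other cells or too few cells. The median log2 fold change in the authors' deposited table was -0.31 over the 4597 listed genes, 0.69 over the higher and -0.52 over the lower. A log2 fold change of at least 1 was reached by 495 higher genes (5.36% of 9229), of at least 2 by 101 and of at least 3 by 23. Among the lower genes 463 lay at -1 or below and 73 at -2 or below. A gene stands in the table only if some cluster differed in it, and 467 of the 1663 higher genes had a positive fold change in no other cluster, 315 of them being listed for no other cluster. The 315 stand in the table only through Unknown.1, and the others of the 467 had only negative fold changes elsewhere. The counts of list members given here therefore describe the table and support nothing about a list. Each such count is to be read beside the 18.0% higher and 28.8% lower over all 9229 genes, and some lie close to these.

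Flt1, a receptor for vascular endothelial growth factor (VEGF), had the largest fold change of the cluster. In the authors' deposited table it was present in 99.0% of Unknown.1 cells and 2.1% of other cells, with a log2 fold change of 4.98. Ly6c1, a surface protein gene of endothelial and some immune cells, followed with 92.5% and 3.7% (log2 fold change 4.14) in the authors' deposited table. Ly6c1 transcripts share 98.3% of the bases of the shorter with its copy Ly6c2 in GENCODE, so reads may be divided between them and the Ly6c1 value is uncertain. Cldn5, the main claudin of endothelial tight junctions, was at 83.8% and 1.5% (log2 fold change 4.00) in the authors' deposited table. Each of these 3 genes was present in over 80% of Unknown.1 cells and in under 5% of the rest.

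The next genes by fold change in the authors' deposited table were Cxcl12, a chemokine (3.85), Igfbp7, a secreted binding protein (3.80), Emcn, the sialomucin endomucin (3.64), Ctla2a (3.62), Plcb1, a phospholipase (3.58), and Tm4sf1 (3.57). Below them in the authors' deposited table stood Ly6e (3.52), the junction gene Pecam1 (3.50), Arl15 (3.45), the phosphatase gene Ptprg (3.41), Cyyr1 (3.33), the efflux pump gene Abcb1a (3.31), Tcf4 (3.28) and Kitl, the ligand of the Kit receptor (3.28). The last of the 25 in the authors' deposited table were Adgrl4 (3.19), Klf2 (3.11), Adamts9 (3.09), Ly6a (3.04), Ifitm3 (3.02), Mecom (3.00), Prkch (2.99) and Ier3 (2.99). By difference in the share of cells 16 of these 25 genes were also among the first 25.

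**Figure D1:**
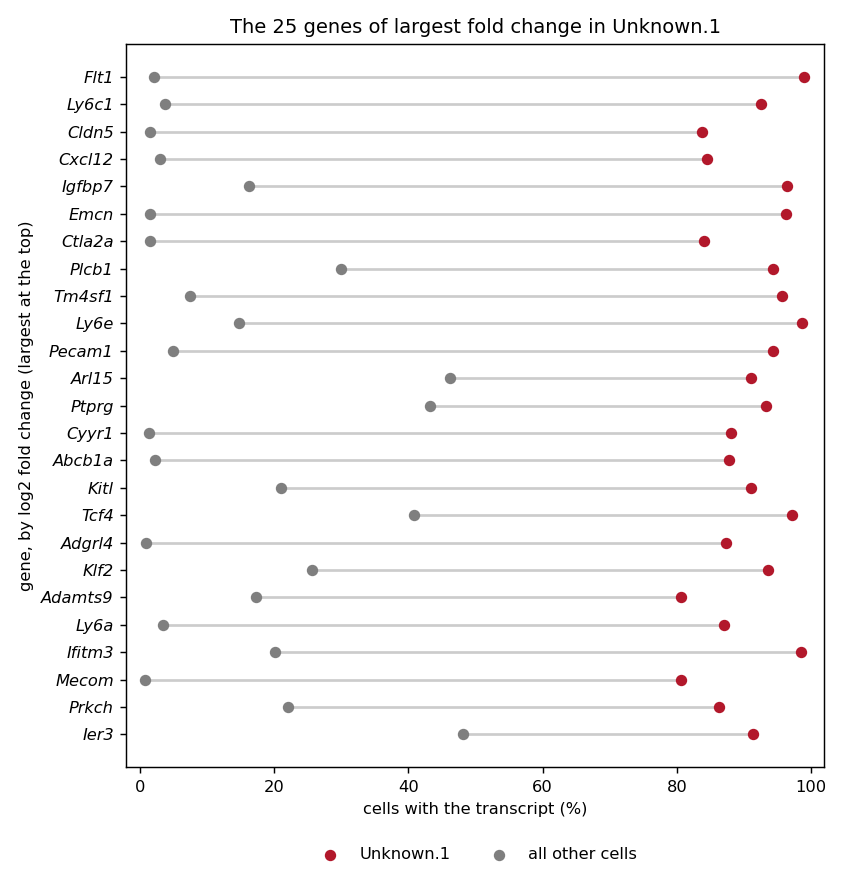
Share of cells with the transcript (x axis, percent) for the 25 genes of largest fold change, one gene per row, in Unknown.1 (red) and in all other cells (grey). Flt1 was in 99.0% of Unknown.1 cells and 2.1% of other cells, while Arl15 was in 91.1% and 46.2%.

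The leading genes differed in how far they were confined to the cluster. Of all cells in the data with the transcript, 91.0% lay in Unknown.1 for Mecom, a transcription factor gene, 90.7% for Adgrl4, an adhesion receptor gene of endothelium, 86.6% for Emcn and 82.6% for Flt1. For Igfbp7 it was 37.4%, for Klf2 27.0%, for Plcb1 24.1% and for Ier3 16.1%, so these were common elsewhere too. The median over the 25 genes was 56.3%. Among all 1663 higher genes 240 had at least 50% of their positive cells in Unknown.1, 113 at least 75% and 45 at least 90%. The cluster as a whole held 9.17% of cells, which is the share a gene equally frequent everywhere would give. In 120 higher genes the transcript was in at least 90% of Unknown.1 cells, and 6 genes combined that with at most 10% of other cells, namely Flt1, Emcn, Ly6c1, Tm4sf1, Pecam1 and Cd34.

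**Figure D2:**
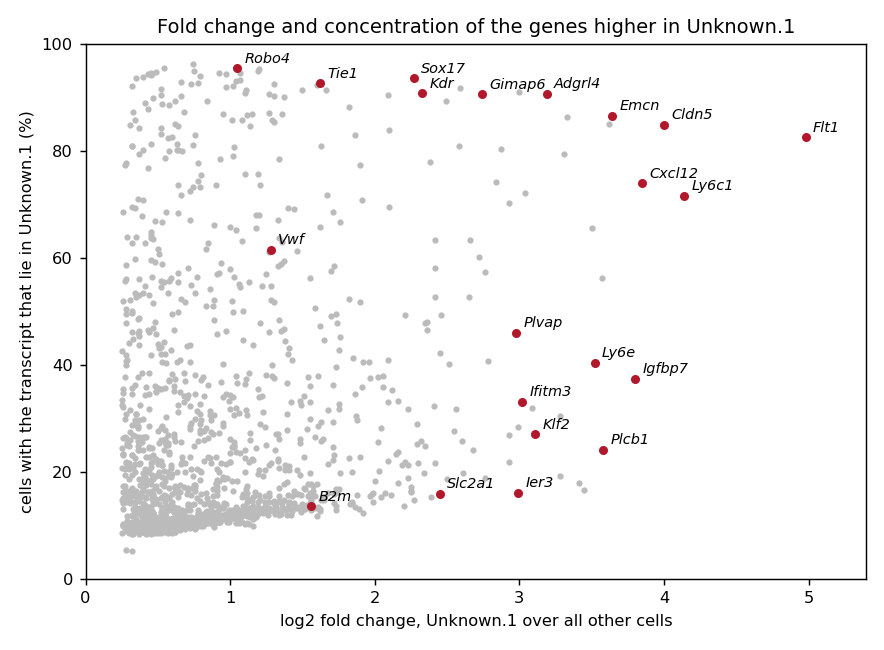
Log2 fold change of Unknown.1 over all other cells (x axis) and the share of all cells with the transcript that lie in Unknown.1 (y axis, percent) for the 1663 higher genes, with named genes in red. Flt1 lies at 4.98 and 82.6%, Robo4 at 1.05 and 95.5%, and Ier3 at 2.99 and 16.1%.

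Flt1, Ly6c1 and Cldn5 are among the 15 endothelial markers after which the cluster was called endothelial-like, and 12 of the 15 had a positive fold change in no other cluster, 4 of them being listed for no other, so their being higher in the authors' deposited table is a description. VE-cadherin (Cdh5, 2.87), endoglin (Eng, 2.84), the phosphatase of the Tie receptors Ptprb (2.72) and the VEGF receptor Kdr (2.33) were among them in the authors' deposited table, and the lowest was the receptor gene Tie1 at 1.62 in 63.2% of Unknown.1 cells and 0.5% of other cells. The lymphatic marker Flt4 was at 0.43 in 14.4% of Unknown.1 cells and 0.2% of other cells and Pdpn at -0.41 in 1.2% and 11.1% in the authors' deposited table, while Prox1 and Lyve1 were not in the table.

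Markers of the other ganglion cell types were mostly lower or not listed. Over all 9229 genes 28.8% were lower and 4632 were not listed. No mural marker was higher, with 2 lower of 10 in the table, and the pericyte gene Rgs5 was in 3.3% of Unknown.1 cells and 13.2% of other cells in the authors' deposited table. The 8 mural genes not listed for Unknown.1 could be in at most 0.565% of its cells for the pericyte gene Higd1b and up to 43.2% for Tagln, so these limits are loose for some of them. No fibroblast marker was higher of 8, with 3 lower, and Dcn was in 5.4% of Unknown.1 cells and 23.1% of other cells in the authors' deposited table. No myelinating Schwann cell marker was higher of 8, with 3 lower, and Mbp was in 3.1% and 36.1% in the authors' deposited table. Of 8 satellite glia markers 4 were lower. Apoe, a lipid carrier gene, was lower at -3.01 although it was in 58.7% of Unknown.1 cells and 50.1% of other cells in the authors' deposited table. Glul, the gene of glutamine synthetase, was higher at 2.20 in 83.2% of Unknown.1 cells and 53.4% of other cells in the authors' deposited table. Its share was larger in 6 of the 17 other clusters it was listed for, up to 97.7% in LTMR. Macrophage genes other than Cx3cr1 (0.53, in 23.4% and 5.9% in the authors' deposited table) were not listed. None of the 4 blood cell markers in the table was listed. The 7 unlisted macrophage genes could be in at most 2.70% of Unknown.1 cells for the complement gene C1qc and up to 66.9% for Aif1.

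Levels in Unknown.1 were also set against those in single clusters, with each level derived from the fold changes and still holding the constant that the fold change adds to a mean. The Flt1 level in Unknown.1 was above that in Unknown.3, where the mural gene Acta2 was in 97.2% of cells in the authors' deposited table, by a log2 difference of 4.82, and above Unknown.2 by 4.96 and Unknown.5 by 4.54. Igfbp7, present in 96.4% of Unknown.1 and 99.7% of Unknown.3 cells in the authors' deposited table, was above Unknown.3 by 0.24 and above Unknown.2 by 5.08. Conversely the muscle gene Myl9 was lower in Unknown.1 than in Unknown.3 by a log2 difference of -5.55, and Apod lower than in Unknown.6 by -8.84.

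**Figure D3:**
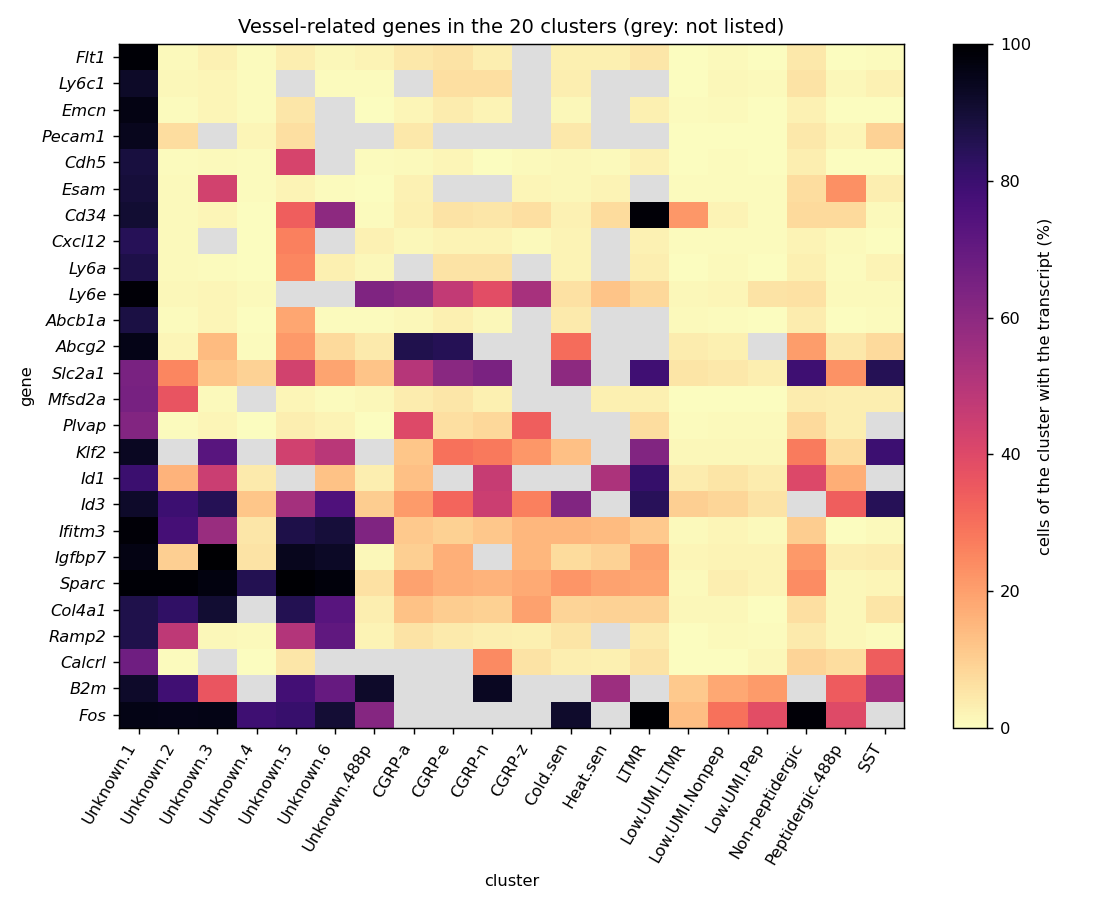
Share of cells with the transcript (colour, percent) of 26 vessel-related genes (rows) in the 20 clusters (columns, Unknown.1 at the left), with grey where the gene is not listed for the cluster. Flt1 is in 99.0% of Unknown.1 cells and 0 to 5.8% of the other clusters it is listed for, whereas Sparc is in 99.0% of Unknown.1 and 99.5% of Unknown.5.

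Several vessel genes were also frequent in particular other clusters. Cdh5 was in 88.6% of Unknown.1 cells and 42.1% of Unknown.5 cells, and Cd34, a sialomucin, in 90.6% of Unknown.1 and 98.7% of LTMR cells, in the authors' deposited table. Abcg2 was in 95.7% of Unknown.1 and 86.0% of CGRP-a cells in the authors' deposited table. Mfsd2a, a lipid carrier of barrier endothelium, was in 64.9% of Unknown.1 and 36.4% of Unknown.2 cells in the authors' deposited table. In Unknown.5, Abcb1a (18.4%) and Cxcl12 (26.3%) were more frequent than in the other Unknown clusters they were listed for besides Unknown.1, where they reached 1.7% and 2.7% of cells, in the authors' deposited table.

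Of 11 genes of VEGF and its neuropilin and plexin co-receptors 8 were higher (5 with a log2 value of 1 or more) and 1, the ligand gene Vegfb, lower. Nrp1, a co-receptor of VEGF, was at 1.88 in 79.5% of Unknown.1 cells and 19.0% of other cells in the authors' deposited table, and Vegfb at -0.54 in 9.2% and 47.5%. Of the 6 angiopoietin and Tie genes 3 were higher, Ptprb, Tek and Tie1, and the angiopoietin genes were not listed. At least 77.4% of Unknown.1 cells held both Flt1 and Kdr transcripts, the floor that both shares impose.

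Notch, BMP and Wnt signalling genes differed in how far they were higher. Of 10 Notch genes 7 were higher (3 with a log2 value of 1 or more), led by the target Hes1 (1.46) and the ligand Dll4 (1.30, in 45.5% of Unknown.1 cells and 0.5% of other cells) in the authors' deposited table. The Hes1 level differed from the other Unknown clusters it was listed for by log2 values from -0.31, against Unknown.3, to 1.81. Of 14 BMP and TGF-beta genes 12 were higher (6 with a log2 value of 1 or more) and Smad1 was lower (-0.33 in the authors' deposited table). The receptors Eng (2.84) and Acvrl1 (1.86) and the target genes Id1 (2.55) and Id3 (2.23) led them in the authors' deposited table. Of 14 genes of Wnt signalling and barrier induction 11 were higher (4 with a log2 value of 1 or more), with the nuclear factor Lef1 at 2.21 in 68.4% of Unknown.1 cells and 7.1% of other cells in the authors' deposited table.

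Both barrier genes and the gene of the diaphragms of leaky vessels were frequent. Of 13 barrier transporter genes 11 were higher, with a median of 2.21. Abcb1a, which pumps drugs back into the blood, was in 87.8% of Unknown.1 cells and 2.3% of other cells in the authors' deposited table. Slco1a4, an organic anion carrier, was in 66.9% and 0.6%, and the glucose transporter gene Slc2a1 in 64.6% and 34.5%, in the authors' deposited table. Plvap, which codes for the diaphragm of fenestrae and caveolae, was at 2.98 in 62.4% of Unknown.1 cells and 7.4% of other cells in the authors' deposited table. Since the shares of Plvap and Abcb1a add to over 100%, at least 50.2% of Unknown.1 cells held both transcripts, and at least 46.2% held both Plvap and Cldn5. With Mfsd2a the floor was 27.3%. Plvap was also in 40.1% of CGRP-a and 33.6% of CGRP-z cells in the authors' deposited table.

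Junction genes were higher in 10 of 12 adherens and 5 of 7 tight junction genes. Cldn5 (4.00), Pecam1 (3.50) and Cdh5 (2.87) led, and Tjp1, the scaffold of the tight junction, was at 2.25 in 83.2% of Unknown.1 cells and 40.6% of other cells in the authors' deposited table. Of 10 genes of fenestrae, caveolae and transcytosis 9 were higher, with the caveola genes Cav1 at 2.51 and Cavin2 at 2.42 in the authors' deposited table. Caveola genes were not all above the other Unknown clusters they were listed for. Differences in log2 level ran from 0.02, against Unknown.5, to 3.06 for Cav1 and from 0.44, against Unknown.5, to 2.59 for Cavin2. For Cavin1 they ran from -1.71, against Unknown.3, to 1.47.

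Some genes of each vessel segment list were higher, but values over the whole cluster cannot show which segments its cells come from. The venous genes Nr2f2 and Ackr1 were not listed for Unknown.1. Either could still be in up to 100% of its cells, so their absence is not shown. Venous Selp and Sele and arterial Gja5 were not in the table. Of 13 arterial genes 11 were higher (4 with a log2 value of 1 or more), led by the factor Sox17 (2.27, in 72.8% of Unknown.1 cells and 0.5% of other cells in the authors' deposited table), while Stmn2, a tubulin regulator also known from neurons, was lower (-3.33). Of 11 venous genes 7 were higher (2 with a log2 value of 1 or more), with Vwf, the clotting factor carrier, at 1.28 in 30.1% of Unknown.1 cells and 1.9% of other cells in the authors' deposited table. Of 13 capillary genes 9 were higher (8 with a log2 value of 1 or more) and 2 lower, with Gpihbp1, which anchors lipoprotein lipase, at 1.5 in 41.9% and 0.4%, and Fabp5 at -1.86 in 21.9% and 74.4%, in the authors' deposited table. Of 10 tip cell and angiogenesis genes 5 were higher (2 with a log2 value of 1 or more), led by Igfbp3, in 39.9% of Unknown.1 cells and 7.8% of other cells in the authors' deposited table, and Robo4, a guidance receptor of endothelium, was in 41.7% of Unknown.1 cells and 0.2% of other cells. The shares of Sox17 and Vwf allow as few as 2.9% of Unknown.1 cells to hold both transcripts.

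The table holds 29 transcription factor genes, and 23 were higher. Of these 13 had a positive fold change in no other cluster, 11 of them being listed for no other, so the count is a description. Klf2, which responds to blood flow, was at 3.11 in 93.6% of Unknown.1 cells and 25.6% of other cells in the authors' deposited table. Mecom stood at 3.00, Epas1, an oxygen-sensing factor, at 2.56, and Klf4 at 2.16 in the authors' deposited table. The ETS factors Fli1 (1.82), Erg (1.82), Elk3 (1.70) and Ets1 (1.63) and the SOX factors Sox7 (1.37) and Sox18 (1.30) were each in more cells of Unknown.1 than of the other cells in the authors' deposited table, from 44.4% for Sox7 to 66.6% for Erg. Erg was in 0.9% of other cells and Sox18 in 0.4% in the authors' deposited table.

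**Figure D4:**
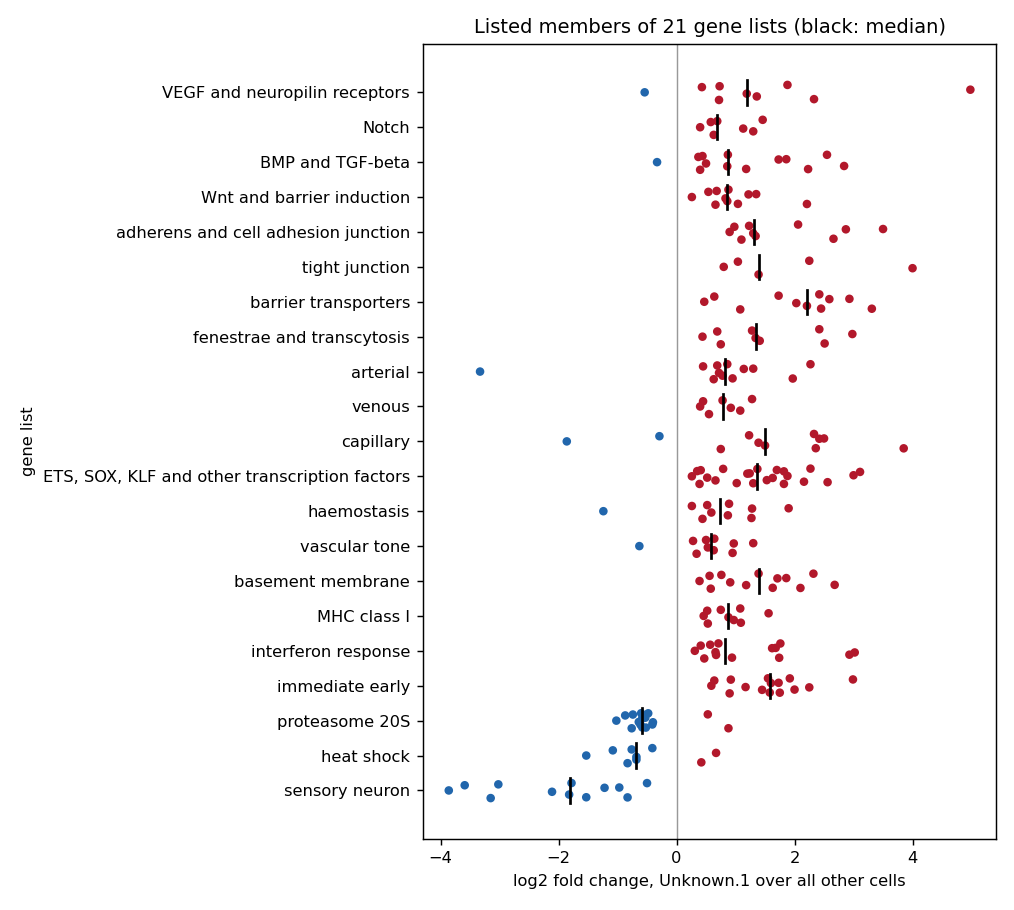
Log2 fold change of Unknown.1 over all other cells (x axis) for the listed members of 21 gene lists (rows), with red for positive and blue for negative values and a black bar for the median. Barrier transporters lie at a median of 2.21, sensory neuron genes at -1.80.

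Other endothelial functions followed. Of 11 haemostasis genes 9 were higher (3 with a log2 value of 1 or more), with the nucleotide-cleaving enzyme gene Entpd1 at 1.90 in 70.2% of Unknown.1 cells and 6.6% of other cells in the authors' deposited table, and Anxa2 lower at -1.24. Of 14 vascular tone genes 9 were higher (1 with a log2 value of 1 or more), among them the endothelin gene Edn1 (0.95, in 26.6% and 0.4%) and the nitric oxide synthase gene Nos3 (0.53, in 24.1% and 15.9%) in the authors' deposited table. Of 16 basement membrane genes 13 were higher (8 with a log2 value of 1 or more), with Sparc at 2.32 and the collagen IV genes Col4a2 (1.86) and Col4a1 (1.71) in the authors' deposited table. Their levels were not above those of every other Unknown cluster. Differences in log2 level ran from -0.57, against Unknown.5, to 2.77 for Col4a1 and from -0.48, against Unknown.3, to 2.65 for Col4a2. For Sparc they ran from -0.63, against Unknown.6, to 4.59. Col4a1 was also lower than in Unknown.3 (-0.54), and Sparc lower than in Unknown.5 (-0.46). Of 12 leukocyte adhesion genes and sialomucins 9 were higher (7 with a log2 value of 1 or more). The 2 lower ones were Cd9 (-2.47) and Cd47 (-0.67) in the authors' deposited table. Icam1 was in 30.4% of Unknown.1 cells and 2.3% of other cells in the authors' deposited table. It was in 19.1 to 34.2% of cells of the other Unknown clusters it was listed for, in the authors' deposited table. The Icam1 level in Unknown.1 differed from theirs by log2 values from -0.22 to 0.17. Of 12 integrin genes 5 were higher (1 with a log2 value of 1 or more), led by Itga6 (1.72 in the authors' deposited table).

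Receptor, GTPase and guidance genes were measured as well. Of 12 vessel receptor genes of the G protein-coupled kind and their ligands 8 were higher (5 with a log2 value of 1 or more), with the sphingosine phosphate receptor gene S1pr1 at 1.68, while S1pr3 was lower at -0.75 in 1.7% of Unknown.1 cells and 33.7% of other cells in the authors' deposited table. Of 21 regulators of small GTPases, which shape junctions and the cytoskeleton, 17 were higher, and Rasgrp3 was in 66.2% of Unknown.1 cells and 0.7% of other cells in the authors' deposited table. Of 17 ephrin, semaphorin and slit guidance genes 11 were higher (5 with a log2 value of 1 or more), with Sema7a at 1.59 and the receptor gene Epha4 at 1.55 in the authors' deposited table.

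Some other lists were mixed, beside 18.0% higher and 28.8% lower over all genes. Of 12 genes of cyclic nucleotide and G protein signalling 7 were higher (2 with a log2 value of 1 or more) and 4 lower, with Prkch, a protein kinase C gene, at 2.99 and Gna14 at -0.86 in the authors' deposited table. Of 10 insulin-like growth factor genes 4 were higher and 2 lower, Igfbp7 at 3.80 and Igfbp2 at -0.32 in the authors' deposited table. Of 10 fatty acid handling genes 1 was higher, Gpihbp1, and 1 lower, Fabp5, and the fatty acid carrier gene Cd36 was not listed and could be in at most 5.91% of Unknown.1 cells. Of 5 Ly6 family genes 4 were higher and Ly6h was lower, at -0.51 in 1.0% of Unknown.1 cells and 19.6% of other cells in the authors' deposited table. Of 8 cell cycle genes 2 were in the table, and Pcna, a replication clamp, was in 44.9% of Unknown.1 cells and 43.8% of other cells in the authors' deposited table.

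Of 9 genes of the CGRP and adrenomedullin system 4 were higher (2 with a log2 value of 1 or more) and 4 lower. CGRP, a vessel-widening peptide of sensory neurons, acts through Calcrl joined to a RAMP protein. Calcrl was at 1.92 in 67.0% of Unknown.1 cells and 9.9% of other cells, and Ramp2, which makes it an adrenomedullin receptor, at 2.35 in 86.5% and 9.5%, in the authors' deposited table. At least 53.5% of Unknown.1 cells held both. Ramp2 was also in 70.9% of Unknown.6 cells in the authors' deposited table. Its level in Unknown.1 was above the other Unknown clusters by log2 differences from 0.29, against Unknown.6, to 2.69. Ramp1, the partner that makes the CGRP receptor, was not listed for Unknown.1 and could be in at most 24.8% of its cells. Calca was in 54.6% of Unknown.1 cells and 82.0% of other cells with a log2 fold change of -3.86 in the authors' deposited table.

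Of 11 MHC class I genes 9 were higher (3 with a log2 value of 1 or more), with B2m at 1.56 in 92.1% of Unknown.1 cells and 59.1% of other cells in the authors' deposited table. B2m, H2-D1 and H2-K1 were not above every other Unknown cluster they were listed for. Differences in log2 level ran from -0.65 to 1.76 for B2m, from -0.69 to 1.92 for H2-D1 and from -0.61 to 1.48 for H2-K1. The lowest value of each was against the Unknown cluster where the macrophage gene Lyz2 was in 91.1% of cells in the authors' deposited table. Of 17 interferon response genes 13 were higher (6 with a log2 value of 1 or more) and none lower, led by Ifitm3 (3.02), in 98.5% of Unknown.1 cells and 20.1% of other cells, and the interferon-induced GTPase gene Iigp1 (2.93), in 77.3% and 3.3%, in the authors' deposited table. Gimap genes, GTPases studied mainly in lymphocytes, were chosen as a family after their values were seen. The 6 in the table had a positive fold change in no other cluster. The 5 listed for no other stand in the table only through Unknown.1, so their being higher is a description. Their values ran from 0.43 for Gimap8 to 2.74 for Gimap6, in 16.4 to 85.7% of Unknown.1 cells and at most 0.9% of other cells in the authors' deposited table. RefSeq lists 8 Gimap coding genes with 0 other coding genes between them.

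Immediate early genes, which switch on within minutes of a stimulus, were all higher. All 15 in the list were higher, led by Ier3 (2.99) and Ier2 (2.25), with Fos at 1.60 in 96.0% of Unknown.1 cells and 72.3% of other cells in the authors' deposited table. Against the other Unknown clusters the Fos level differed by log2 values from -0.35, against Unknown.2, to 2.41. Of 11 heat shock genes 2 were higher and 7 lower, beside 18.0% higher and 28.8% lower over all genes. Both higher ones stayed below a log2 value of 1. The cells were dissociated with enzymes and labelled while alive, and the part of that handling in these genes was not tested.

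The 20S proteasome genes, whose β5 protein was the target of the labelling antibody, were split. Of 17 genes 14 were lower and 2 higher, the immunoproteasome subunits Psmb8 (0.88, in 46.0% of Unknown.1 cells and 23.2% of other cells) and Psmb9 (0.53, in 24.7% and 9.2%) in the authors' deposited table. Psmb5 had the lowest value, -1.02 in 52.8% and 70.7% in the authors' deposited table. Against the other 6 Unknown clusters the Psmb5 level of Unknown.1 differed by log2 values from -0.14 to 0.18. Psmb10 was not listed for the cluster.

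Sensory neuron genes were lower, yet many were still detected. All 12 markers were lower, with a median of -1.80. Among genes in at least 25% of other cells and at least 20 percentage points rarer in Unknown.1, the 10 of lowest fold change in the authors' deposited table were Calca (-3.86), Tac1 (-3.59), Meg3 (-3.57), Stmn2 (-3.33), Pcsk1n (-3.16), Prph (-3.15), Scg2 (-3.07), Tubb3 (-3.02), Stmn3 (-2.94) and Rtn1 (-2.94). The neuropeptide gene Tac1 was in 44.5% of Unknown.1 cells and 74.4% of other cells, the intermediate filament gene Prph in 58.7% and 87.6%, and the sodium channel gene Scn9a in 5.7% and 57.2%, in the authors' deposited table. Against the other 6 Unknown clusters, where Prph was in 32.9 to 61.0% of cells and Scn9a in 2.1 to 5.8%, Unknown.1 was within the range for Calca, Tac1, Prph, Tubb3 and Scn9a, and for Snap25 it was at 15.3% with the others at 8.5 to 15.1%, in the authors' deposited table. At least 53.6% of Unknown.1 cells held both Flt1 and Calca transcripts. The level of Tubb3 in Unknown.1 differed from those in the other 6 Unknown clusters by log2 values from -0.66, against Unknown.4, to 0.05, against Unknown.5. Against Unknown.4 the levels of Calca (-0.83), Tac1 (-0.85) and Prph (-0.74) were also lower in Unknown.1, and their highest differences from another Unknown cluster were 0.24, 0.01 and 0.20. The part of free RNA or of doublets in these values was not tested.

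**Figure D5:**
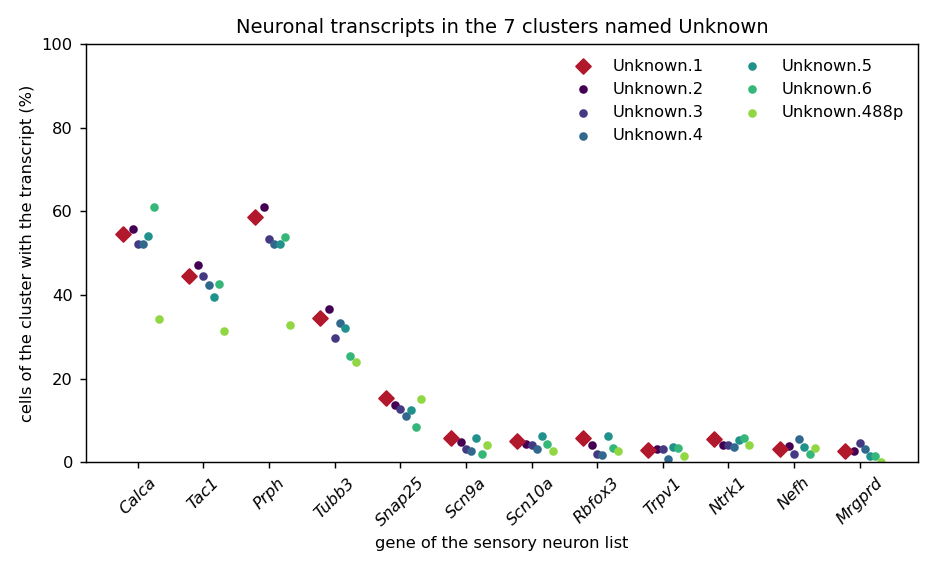
Share of cells with the transcript (y axis, percent) of the 12 sensory neuron markers in the 7 Unknown clusters, Unknown.1 as a red diamond at the left of each gene. Calca is in 54.6% of Unknown.1 cells and 34.2 to 61.0% of the others.

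Further gene families were chosen after their values were seen. Over all 4597 listed genes 2656 were lower and 1663 higher. Of 60 potassium channel genes of the Kcn family 33 were listed and 31 lower, with Kcnb2 at -2.43 in the authors' deposited table. Kcnq1 was higher at 0.45 in 17.8% of Unknown.1 cells and 1.0% of other cells in the authors' deposited table. Of 11 tubulin genes 10 were listed and 9 lower. Of 79 ribosomal protein genes 67 were listed, with 66 higher, Rpl22l1 lower and a median of 0.64. All 7 listed of 13 mitochondrially encoded genes were lower, although they were in 94.2 to 99.7% of Unknown.1 cells and 74.5 to 83.5% of other cells in the authors' deposited table. The other cells include the 3 Low.UMI clusters, with 14.1%, 11.6% and 2.92% of all cells, whose names point to few transcript molecules per cell and where Fos was in 13.5 to 38.5% of cells in the authors' deposited table. The part of that depth in the shares printed for other cells was not tested.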

How the data were processed

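Single-cell RNA sequencing libraries of sorted dorsal root ganglion cells were described by 1 deposited table of cluster markers with 20 clusters. Per the file headers, the authors give a p-value and an adjusted p-value, a log2 fold change of the average expression, and the fraction of cells with the transcript inside and outside the cluster, for each gene and cluster. No deposited p-value exceeds 0.01 and no absolute log2 fold change is below 0.25. The median ratio of adjusted to unadjusted p-value was 32285. Seurat is named in the submitters' processing notes. Not given in the sources used here were aligner, genome build, cell filters, normalization, clustering, doublet treatment, depth and cell numbers.

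The share of all cells in each cluster was solved by least squares (numpy 2.4.6, Python 3.11.15) over 6742 genes whose shares differed by at least 5 percentage points. The overall share of cells with a transcript must be the same from every cluster. The residual was 0.0274 percentage points, against a step of 0.1 in the deposited shares, and the shares sum to 100.01%. With these weights each fold change was turned into a level relative to the mean of all cells. Over the 34 genes listed for every cluster the weighted levels averaged 1 to 1.0001. The scripts were tested on simulated cells. No test was made, because there is 1 library per population and the clusters were made from the same cells.

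The members and gene lists were chosen with earlier results of these data known, and the motifs with the promoter sequences in view. The genes named were the 25 of largest and 10 of lowest log2 fold change among those past an adjusted p of 0.05, in at least 25% of cells and differing by at least 20 percentage points (for lower genes with the sides turned round), without predicted genes. The 10 of largest difference in share and the members of the lists that describe each role were added. The 42 lists hold 474 genes, of which 426 are in the table, 249 were higher and 64 lower, and 58 genes belong to more than 1 list. Promoters come from RefSeq, with a window for 11 of the 15 markers.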

Additional observations from a re-analysis of the deposited data

How the results depend on the processing

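Requiring an adjusted p under 0.01 or the same direction in the share of cells left both counts of genes within 1.5 times. An absolute log2 fold change of at least 1 left 495 higher and 463 lower genes, and one of at least 0.5 left 1400 lower genes. With a log2 fold change of at least 1, 143 list members remained higher of 249, and the count of 22 of the 42 lists changed by over 1.5 times. Of the 25 leading genes 16 were also among the first 25 by difference in share. Weights from differences of at least 2 or 20 points left the share of all cells in Unknown.1 at 9.17%. Of 2 alternatives chosen after seeing the data, shares shifted by 0.05 points gave a median of 56.1% of positive cells held, against 56.3%, and other weights left the Flt1 difference from Unknown.3 at 4.82. No paired analysis was possible because the table holds no sample columns, and for the same reason no library could be left out. Shares of cells depend on depth, which is unknown.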
